A study of Homo sapiens with 6 samples.

Results

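The data compared here are 4 of the 6 RNA-seq libraries of a study of 3 human cell lines: the 2 labelled HT-29 with IFN-γ and the 2 labelled MDA-MB-436. Libraries were assigned by these labels alone, and every gene in the deposited tables was considered, 23340 names in all, of which 15360 passed a filter on low values and were tested. HT-29 is a colorectal adenocarcinoma line, and both of its libraries carry the label of IFN-γ treatment, at 200 U per ml for 24 hours. MDA-MB-436 is a breast adenocarcinoma line, for which no treatment is recorded. The protocols give McCoy's 5A medium in CO2 for HT-29 and L-15 medium without CO2 for MDA-MB-436, so cell line, treatment and medium cannot be told apart. One library of each line is labelled 25M reads and the other 50M, and the protocols describe sequencing in duplicate at different depths. Whether the duplicates are separate cultures is not recorded, so the spread behind each p-value, that of 2 libraries per pair, may be technical. The 2 MCF10A libraries, from a non-tumorigenic mammary epithelial line with no recorded treatment, are quoted for levels only.

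Epithelial cells are held together by E-cadherin and are polarised, with an apical surface that carries its own proteases, channels, glycoproteins and sorting machinery. Mesenchymal-type carcinoma cells lack this organisation, and make vimentin, N-cadherin and a pericellular matrix. IFN-γ induces CIITA, the master regulator of MHC class II genes.

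The markers went against both labels. Levels below are normalised read counts, given for the 25M and then the 50M library of each pair, and a log2 fold change is the HT-29-labelled pair minus the MDA-MB-436-labelled pair on log2(level + 1). KRT20, a keratin of intestinal epithelium, stood at 0 and 0.547 in the HT-29-labelled pair and 29899.7 and 30879.7 in the MDA-MB-436-labelled pair (log2 fold change -14.58, SE 0.216, adjusted p = 3.29e-07). VIL1, which encodes the brush border protein villin, stood at 0 and 0 in the HT-29-labelled pair and 2055 and 2198 in the MDA-MB-436-labelled pair (log2 fold change -11.05, SE 0.175, adjusted p = 3.39e-07). CDX2, an intestinal transcription factor, stood at 0 and 0 in the HT-29-labelled pair and 194 and 182 in the MDA-MB-436-labelled pair. These 3 intestinal genes were thus at 0 or at 1 read in the libraries labelled as a colorectal line, and 0 reads are compatible with up to 3 reads over the pair. VIM, which encodes vimentin, stood at 36599 and 35267 in the HT-29-labelled pair and 16.5 and 7.39 in the MDA-MB-436-labelled pair (log2 fold change 11.54, SE 0.336, adjusted p = 2.07e-06). CDH2, which encodes N-cadherin, stood at 4553 and 4446 in the HT-29-labelled pair and 0 and 0.616 in the MDA-MB-436-labelled pair (log2 fold change 11.79, SE 0.258, adjusted p = 8.67e-07). CIITA stood at 54 and 39.4 in the HT-29-labelled pair and 8790.4 and 8894 in the MDA-MB-436-labelled pair (log2 fold change -7.55, SE 0.148, adjusted p = 6.39e-07), so that the pair labelled with IFN-γ had the lower level. CDH1, which encodes E-cadherin, stood at 4.5 and 3.83 in the HT-29-labelled pair and 22793 and 22477 in the MDA-MB-436-labelled pair (log2 fold change -12.10, SE 0.087, adjusted p = 1.03e-07). In each of these 7 genes both libraries of 1 pair lay on the same side of both libraries of the other. The same held in all 8254 genes called below, but a call nearly requires it, so it adds no support to the calls. The share of all tested genes that separate in this way is not given.

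**Figure D1:**
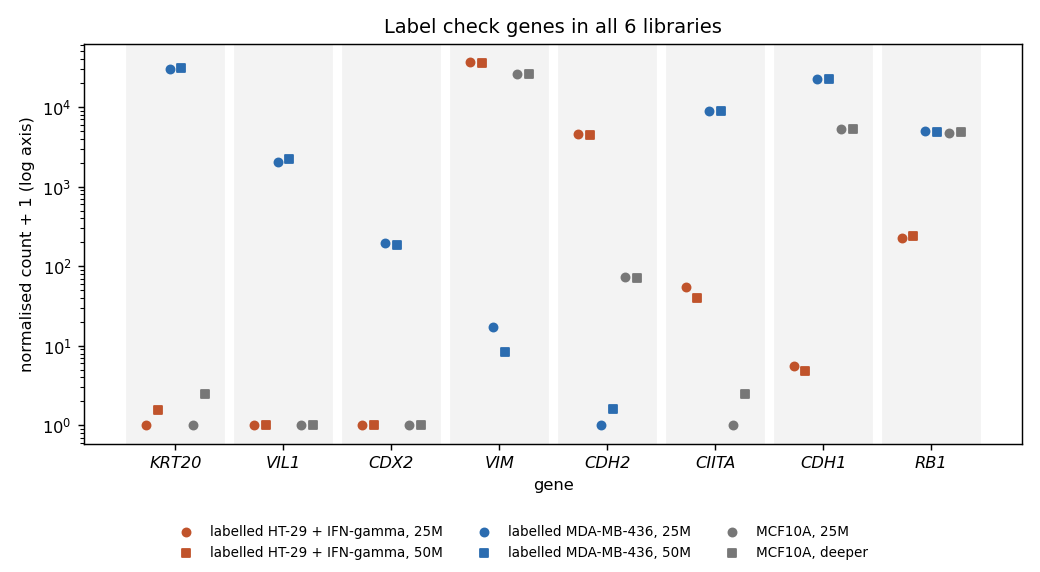
Normalised count + 1 on a log axis for 8 genes in all 6 libraries, with circles for the 25M libraries and squares for the deeper ones. KRT20, VIL1, CDX2, CIITA, CDH1 and RB1 are high in the MDA-MB-436-labelled pair, and VIM and CDH2 in the HT-29-labelled pair.

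Whole marker lists ran the same way. The 12 intestinal markers summed to 4.50 and 8.75 in the HT-29-labelled pair and to 90803 and 94308 in the MDA-MB-436-labelled pair, and 10 of 10 tested were lower in the first. The 12 mesenchymal markers summed to 86548 and 84424 against 379 and 332, and all 12 were higher. The 12 class II and IFN-γ markers summed to 3653 and 3557 against 275016 and 279227, and all 12 were lower. Over all tested genes 29.9% were called higher and 23.8% lower. The filter on low values was passed through 1 pair only by 10 intestinal markers, 4 mesenchymal ones and 1 class II or IFN-γ one. These had to differ, so that their calls add nothing to their levels. The pattern of levels is therefore the reverse of what the labelled tissue and treatment name, as if the labels of the pairs were exchanged. Libraries were kept under their labels, and each direction below is one between libraries as labelled.

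The 4 libraries held 18.4 and 50.2M recovered reads in the HT-29-labelled pair and 16.7 and 56.4M in the MDA-MB-436-labelled pair, against 18.3 and 69.5M for MCF10A. A trace of genes very high in MCF10A was present in all 4. The 12 genes summed for it were at least 5000 in both MCF10A libraries and under 50 in both 50M libraries compared. No such limit held for the 25M libraries, so their larger trace is partly set by this rule. KRT14, a basal keratin, stood at 91.5 and 2.74 in the HT-29-labelled pair and 84.4 and 0.616 in the MDA-MB-436-labelled pair. Low levels were also present between the compared pairs. The 29 genes of at least 5000 in both HT-29-labelled libraries and under 50 in the 50M MDA-MB-436-labelled one summed there to 0.153% (25M) and 0.0909% (50M) of their HT-29-labelled level, and the 48 such genes of the MDA-MB-436-labelled pair to 0.117% and 0.111% in the HT-29-labelled libraries. The part of such traces in levels near 0 was not tested. Of the 12 markers of leukocytes and endothelium, 7 were tested, 5 of them higher and 2 lower. Their summed level ran the other way, at 5204 and 4846 in the HT-29-labelled pair and 38589 and 38861 in the MDA-MB-436-labelled pair, of which LYZ, which encodes lysozyme, made 37811 and 38025.

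Of 15360 genes tested, 8254 (53.7%) were called, at an adjusted p below 0.05 and a difference of at least 2-fold. In the HT-29-labelled pair 4598 (29.9%) were higher and 3656 (23.8%) were lower, and 2225 and 1157 of these differed at least 8-fold. The median log2 fold change over all tested genes was 0.09 and the median SE 0.0677. All 8254 called genes had pairs of values that did not overlap, and the 25M libraries and the 50M libraries gave each of them the same sign. With 2 libraries per pair a call nearly requires both, so neither adds support to the calls. The share without overlap over all tested genes is not given. With scaling by library size alone the median moved by 0.34, and the counts became 5602 higher and 2771 lower. Of the called genes, 1964 of the higher ones averaged under 10 in the MDA-MB-436-labelled pair and 834 of the lower ones under 10 in the HT-29-labelled pair. A gene of this kind passed the filter only through the pair in which it is high, so that it had to differ, and counts over gene lists are given below as descriptions.

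Outside the marker lists, the genes with the largest fall in the HT-29-labelled pair included secreted and surface proteins of glandular epithelium. KRT19, a keratin of simple epithelia, stood at 0 and 3.28 in the HT-29-labelled pair and 27403 and 28084 in the MDA-MB-436-labelled pair (log2 fold change -13.71). AGR2, a disulfide isomerase of mucus-secreting cells, stood at 0 and 1.09 in the HT-29-labelled pair and 9284 and 9699 in the MDA-MB-436-labelled pair (log2 fold change -12.68). TNFSF10, the death ligand TRAIL, had 0 reads in the HT-29-labelled pair and stood at 4762 and 4702 in the other, at least 3921-fold higher. KLK6, TRIM31, SLC44A4, TM4SF4, ST14, EPS8L3, SERPING1 and GPX2, with CDH1, completed the 12 largest, with log2 fold changes from -13.06 to -11.79. Among these, SERPING1 encodes the C1 inhibitor of complement and GPX2 a glutathione peroxidase of the gut.

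The 12 largest increases included matrix, neuronal and cancer-testis genes. FBLN2, a matrix glycoprotein of basement membranes, stood at 30897 and 30042 in the HT-29-labelled pair and 14.4 and 1.85 in the MDA-MB-436-labelled pair (log2 fold change 12.17). PRAME, a cancer-testis antigen, stood at 4590.3 and 4545 in the HT-29-labelled pair and had 0 reads in the other, at least 3204-fold lower there. UCHL1, a neuronal ubiquitin hydrolase, stood at 11499.7 and 11324 in the HT-29-labelled pair and 6.18 and 0 in the MDA-MB-436-labelled pair. CRMP1, BASP1, NGFRAP1, LOXL2, AKR1B1, PTX3, FAM20C, S1PR3 and MAGEA4 were the others, with log2 fold changes from 11.56 to 12.09. CRMP1 and BASP1 are growth cone proteins, and PTX3 is a secreted pattern recognition protein. MAGEA4, whose reads can be shared with near-identical MAGEA genes, stood at 32084 and 31452 in the HT-29-labelled pair and 22.6 and 1.23 in the MDA-MB-436-labelled pair (adjusted p = 0.000152), and lost its call without either HT-29-labelled library (adjusted p = 0.0552 and 0.0549, with log2 fold changes of 12.08 and 12.11). In such a fit the lone library is assumed to vary like the other pair.

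Programs beyond the intestinal, junction, mesenchymal and interferon ones were sought in 32 lists, which held 817 tested genes. Of these 817 genes 251 passed the filter through 1 pair only, beside 2673 of all 15360 tested genes. The 251 included 9 of 15 secretory granule genes, 23 of 44 channel genes, 15 of 40 homeobox genes, 13 of 29 hedgehog and BMP genes and 9 of 20 imprinted genes. The counts ran from 18 of 20 higher to 10 of 13 lower, and are to be read beside 29.9% higher and 23.8% lower over all genes tested. The lists are not separate from the programs set aside. AXL is also a mesenchymal marker, and members such as HNF4A and CYP3A5 are genes of the gut. Whether members respond to IFN-γ was not tested.

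**Figure D2:**
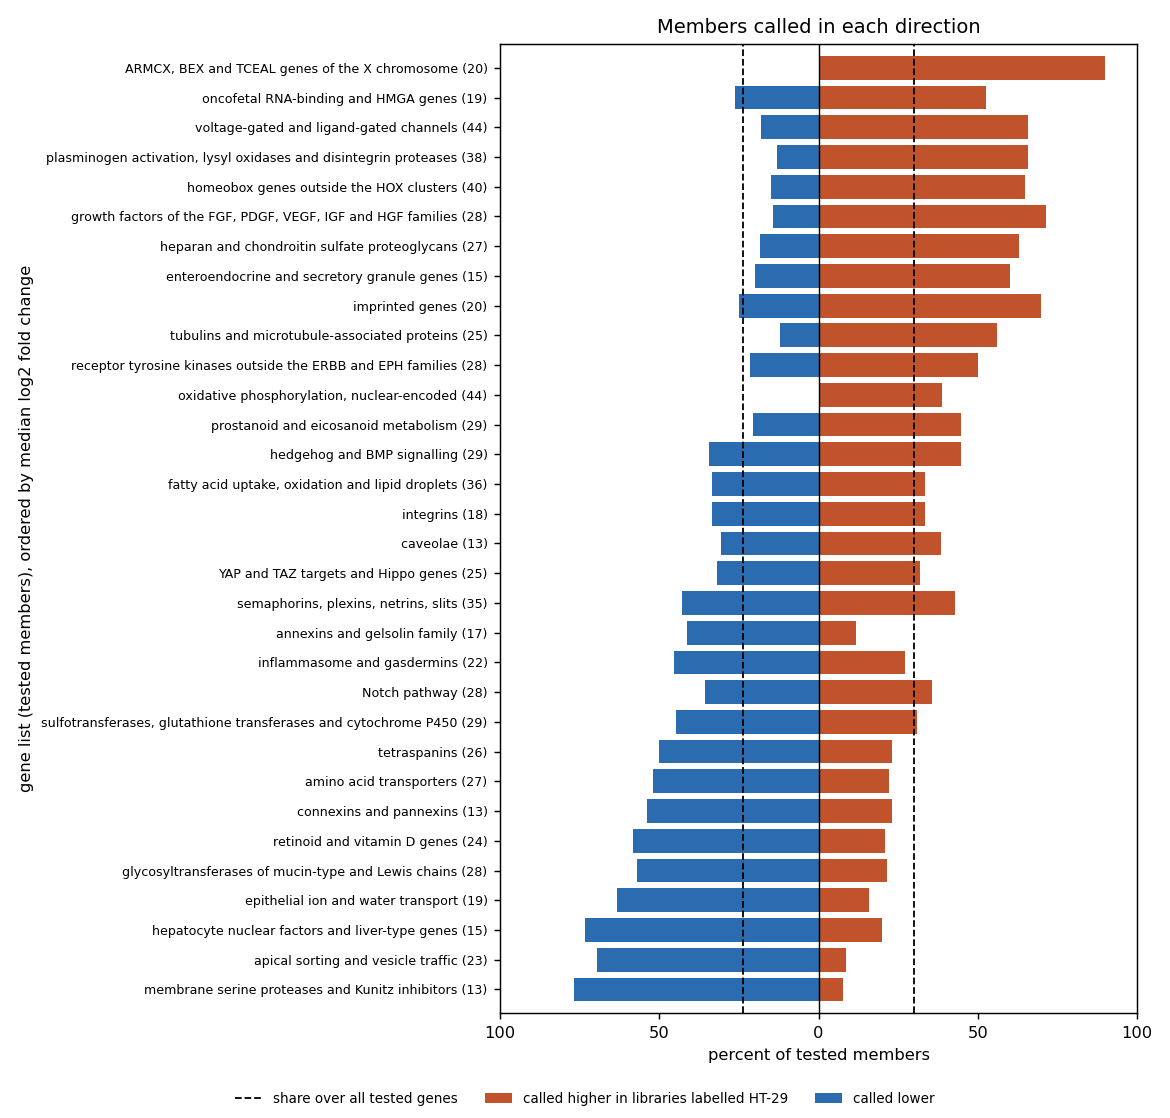
For each of 32 gene lists, the percent of tested members called higher (right) and lower (left) in the HT-29-labelled pair, with the number tested in brackets and dashed lines at 29.9% and 23.8%, the shares over all tested genes. The ARMCX, BEX and TCEAL list has 18 of 20 members higher and none lower, and membrane serine proteases have 10 of 13 lower.

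Hepatocyte nuclear factors and liver-type genes were mostly lower in the HT-29-labelled pair. Of 15 tested, 11 were lower and 3 higher, with a median log2 fold change of -4.32 against 0.09 over all genes. Of these, 6 passed the filter through 1 pair only, and with no filter on low values the median was -1.42. HNF4A, a nuclear receptor that maintains hepatocyte and enterocyte identity, stood at 1.5 and 2.19 in the HT-29-labelled pair and 1989 and 2037 in the MDA-MB-436-labelled pair (log2 fold change -9.48, SE 0.177). FOXA3, a pioneer factor of gut endoderm, stood at 0 and 0.547 in the HT-29-labelled pair and 1563 and 1745 in the MDA-MB-436-labelled pair. HNF4G, a relative of HNF4A, had a log2 fold change of -8.62. The members that went the other way included a factor of the same endoderm network. GATA4, named after its values were seen, stood at 321 and 308 in the HT-29-labelled pair and had 0 reads in the other.

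Membrane-anchored serine proteases process proteins at the epithelial surface, and Kunitz inhibitors restrain them. Of 13 tested genes 10 were lower and 1 higher, with a median of -6.34. ST14, which encodes matriptase, stood at 3 and 2.19 in the HT-29-labelled pair and 14474 and 15486 in the MDA-MB-436-labelled pair (log2 fold change -12.03, SE 0.132). PRSS8, the prostasin that acts with matriptase, stood at 3 and 2.19 in the HT-29-labelled pair and 7267 and 7481 in the MDA-MB-436-labelled pair. SPINT2, the inhibitor of both and named after its values were seen, stood at 48 and 44.9 in the HT-29-labelled pair and 26956 and 28424 in the MDA-MB-436-labelled pair. Proteases and their inhibitor were thus low in the same libraries. PRSS22 and TMPRSS4 fell as well (log2 fold changes -10.92 and -10.41). PRSS23, a secreted member, was the 1 higher gene (1.89).

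Of 19 genes of epithelial ion and water transport, 12 were lower and 3 higher (median -3.03). CFTR, the apical chloride channel, had 0 reads in the HT-29-labelled pair and stood at 1143 and 1180.1 in the other (log2 fold change -10.18). ANO1, a calcium-activated chloride channel, stood at 22.5 and 21.3 in the HT-29-labelled pair and 2092 and 2125 in the MDA-MB-436-labelled pair. KCNE3, a partner of an intestinal potassium channel, and CLIC5 fell too (log2 fold changes -8.09 and -9.47). A potassium channel of basolateral membranes went against the rest. KCNN4 stood at 594 and 631 in the HT-29-labelled pair and 8.23 and 6.77 in the MDA-MB-436-labelled pair, 87.3-fold higher in the first.

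Apical sorting and vesicle traffic had 16 lower and 2 higher of 23 tested (median -4.64). RAB25, a GTPase of apical recycling endosomes, stood at 1.5 and 1.64 in the HT-29-labelled pair and 5068 and 5153 in the MDA-MB-436-labelled pair (log2 fold change -10.96, SE 0.116). EPS8L3, a relative of the actin capping protein EPS8, stood at 0 and 1.09 in the HT-29-labelled pair and 5052 and 5343 in the MDA-MB-436-labelled pair. VAMP8, a vesicle fusion protein of exocrine cells, stood at 16.5 and 24.1 in the HT-29-labelled pair and 3498 and 3817 in the MDA-MB-436-labelled pair. All 3 genes were abundant in the MDA-MB-436-labelled pair and at most 24.1 in the other. SYTL4, an effector of secretory granule GTPases, was higher at 1104 and 1137 in the HT-29-labelled pair and 61.8 and 54.8 in the MDA-MB-436-labelled pair. GALNT3, which starts mucin-type O-glycans, stood at 1.5 and 4.38 in the HT-29-labelled pair and 4667 and 4515 in the MDA-MB-436-labelled pair (log2 fold change -10.29).

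The stretches of 250 bases before the start of RAB25, GALNT3, EPS8L3 and CFTR are shown because these genes fell together, with the E-box CACCTG, which repressors of the ZEB and SNAI families bind, in capitals where it occurs on either strand. They are from RefSeq on GRCh38.p14, at chr1:156060910-156061159, plus strand for RAB25, at chr2:165794248-165794497, minus strand for GALNT3, at chr1:109763924-109764173, minus strand for EPS8L3 and at chr7:117479775-117480024, plus strand for CFTR.
RAB25: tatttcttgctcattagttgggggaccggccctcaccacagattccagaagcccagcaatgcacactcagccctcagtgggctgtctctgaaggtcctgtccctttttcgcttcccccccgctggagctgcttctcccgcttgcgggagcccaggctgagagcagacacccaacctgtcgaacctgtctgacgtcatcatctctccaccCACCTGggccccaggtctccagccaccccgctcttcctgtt
GALNT3: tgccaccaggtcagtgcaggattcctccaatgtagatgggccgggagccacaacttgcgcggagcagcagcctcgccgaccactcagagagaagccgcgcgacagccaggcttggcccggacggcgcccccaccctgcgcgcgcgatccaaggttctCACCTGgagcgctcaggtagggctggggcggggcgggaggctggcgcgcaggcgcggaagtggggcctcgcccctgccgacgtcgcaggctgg
EPS8L3: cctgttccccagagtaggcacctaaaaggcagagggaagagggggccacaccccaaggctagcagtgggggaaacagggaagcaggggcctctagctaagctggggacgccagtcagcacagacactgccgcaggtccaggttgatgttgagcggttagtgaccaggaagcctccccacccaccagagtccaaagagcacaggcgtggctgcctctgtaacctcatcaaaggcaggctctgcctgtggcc
CFTR: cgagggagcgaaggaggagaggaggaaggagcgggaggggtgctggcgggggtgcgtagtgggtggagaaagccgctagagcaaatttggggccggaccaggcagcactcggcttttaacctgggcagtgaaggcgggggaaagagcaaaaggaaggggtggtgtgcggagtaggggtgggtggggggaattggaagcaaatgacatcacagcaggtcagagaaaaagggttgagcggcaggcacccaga
The motif occurs once in the RAB25 stretch, 41 bases before the start, and once in the GALNT3 stretch, 93 bases before it, and its letters are not in the other 2 windows. In the same window, 17.5% of all 35116 RefSeq promoters hold it. A match is a description of the letters only.

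Glycan, tetraspanin and annexin genes were split by member. Of 28 glycosyltransferases of mucin-type and Lewis chains 16 were lower and 6 higher (median -2.19). GCNT3, which branches mucin glycans in gut, stood at 55.5 and 39.9 in the HT-29-labelled pair and 19843 and 20112 in the MDA-MB-436-labelled pair, and FUT4 and FUT1, fucosyltransferases of Lewis and H antigens, fell as well (log2 fold changes -5.24 and -5.08). GCNT1, which branches core glycans in leukocytes and other cells, stood at 924 and 896 in the HT-29-labelled pair and 45.3 and 43.7 in the MDA-MB-436-labelled pair, in the opposite direction to GCNT3. ST3GAL5, the ganglioside GM3 synthase, was also higher at 719 and 749 in the HT-29-labelled pair and 37.1 and 38.2 in the MDA-MB-436-labelled pair. Of 26 tetraspanins and relatives 13 were lower and 6 higher (median -0.99), with TSPAN8 at 4.5 and 6.02 in the HT-29-labelled pair and 4115 and 4375 in the MDA-MB-436-labelled pair. TSPAN1 stood at 107 and 115 in the HT-29-labelled pair and 15331 and 15997 in the MDA-MB-436-labelled pair, while TSPAN9 and TSPAN4 were higher (log2 fold changes 1.43 and 1.28). Among 17 annexin and gelsolin genes 7 were lower and 2 higher (median -0.50). ANXA13, an annexin of intestinal and kidney epithelium, stood at 3 and 1.64 in the HT-29-labelled pair and 945 and 957 in the MDA-MB-436-labelled pair, and ANXA6, a membrane scaffold annexin, in the other direction at 3692 and 3586 in the HT-29-labelled pair and 41.2 and 28.3 in the MDA-MB-436-labelled pair.

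Pericellular matrix genes were mostly higher in the HT-29-labelled pair. Of 27 proteoglycan genes 17 were higher and 5 lower (median 2.15). SDC2, the syndecan of mesenchymal cells, stood at 2252 and 2431 in the HT-29-labelled pair and had 0 reads in the other (log2 fold change 11.19, SE 0.173). GPC6, a glypican, stood at 887 and 920.3 against 0 reads, and HS6ST2, a heparan sulfate sulfotransferase, at 672 and 677 against 0 reads. CHST3, which sulfates chondroitin, stood at 6836 and 6728 in the HT-29-labelled pair and 61.8 and 55.4 in the MDA-MB-436-labelled pair. The large basement membrane proteoglycans ran the other way. HSPG2, which encodes perlecan, stood at 993 and 974 in the HT-29-labelled pair and 4702 and 4610.1 in the MDA-MB-436-labelled pair, and AGRN, which encodes agrin, at 18040.1 and 17706 in the HT-29-labelled pair and 38896 and 39553 in the MDA-MB-436-labelled pair. The call of AGRN ended with scaling by library size alone (log2 fold change -0.81).

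Of 38 genes of plasminogen activation, collagen cross-linking and disintegrin proteases, 25 were higher and 5 lower (median 3.04). Of the 38, 14 passed the filter through 1 pair only, and with a filter of 10 CPM 15 were higher. LOXL2, a lysyl oxidase that cross-links collagen, stood at 7808 and 7476 in the HT-29-labelled pair and 4.12 and 0 in the MDA-MB-436-labelled pair (log2 fold change 11.72, SE 0.747). PLAU, the urokinase activator of plasminogen, stood at 7145 and 6948 in the HT-29-labelled pair and 26.8 and 25.9 in the MDA-MB-436-labelled pair. PLAUR, the receptor of urokinase, went the other way, at 1371 and 1285 in the HT-29-labelled pair and 5904 and 5807 in the MDA-MB-436-labelled pair. Ligand and receptor were thus high in different pairs. ADAMTS2, which trims procollagen, had 0 reads in the MDA-MB-436-labelled pair and stood at 642 and 642 in the other, and ADAMTS9 had a log2 fold change of 8.30. DPP4, a surface peptidase, and ADAM19 were lower (-1.68 and -1.35).

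Integrin chains were called in each direction at 33.3%, not far from the 29.9% higher and 23.8% lower over all genes. Of 18 tested 6 were higher and 6 lower (median -0.02, and 0.42 with TMM scaling). ITGA4, whose product binds fibronectin and VCAM1, stood at 1523 and 1571 in the HT-29-labelled pair and 0 and 0.616 in the MDA-MB-436-labelled pair, and ITGA5, of the classical fibronectin receptor, at 2621 and 2454 in the HT-29-labelled pair and 4.12 and 0 in the MDA-MB-436-labelled pair. ITGA6 and ITGB4, the laminin receptor of hemidesmosomes, stood at 4219.8 and 4282 and at 8057 and 7742 in the HT-29-labelled pair. In the MDA-MB-436-labelled pair they stood at 20805 and 20215 and at 28772 and 28887, so that both fell (log2 fold changes -2.27 and -1.87). ITGAV, at 7369.9 and 7767 in the HT-29-labelled pair and 3835 and 3719 in the MDA-MB-436-labelled pair, was called close to the 2-fold threshold, and the call ended with TMM scaling (0.98), without the 50M HT-29-labelled library (0.96) and without the 50M MDA-MB-436-labelled one (0.98). Without the 50M HT-29-labelled library 3 integrins were called higher.

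Of 13 connexins and pannexins 7 were lower and 3 higher (median -1.38). GJC1, a connexin of vascular and heart muscle, stood at 644 and 663 in the HT-29-labelled pair and had 0 reads in the other. GJB2, a connexin of epithelia, stood at 246 and 239 in the HT-29-labelled pair and 4093 and 4148 in the MDA-MB-436-labelled pair. Different connexins were therefore the high ones in each pair. Among 13 genes of caveolae 5 were higher and 4 lower (median -0.07). CAV1, the coat protein, stood at 10268 and 10321 in the HT-29-labelled pair and 35 and 30.8 in the MDA-MB-436-labelled pair (log2 fold change 8.25). EHD2, the ATPase at the neck of caveolae, stood at 24 and 26.8 in the HT-29-labelled pair and 2802 and 2712 in the MDA-MB-436-labelled pair, in the opposite direction (-6.71). PACSIN3 and PRKCDBP, which shape and bind the coat, rose with CAV1 (7.31 and 6.64), and PACSIN2 was lower (-1.32), a call that ended with scaling by library size alone.

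**Figure D3:**
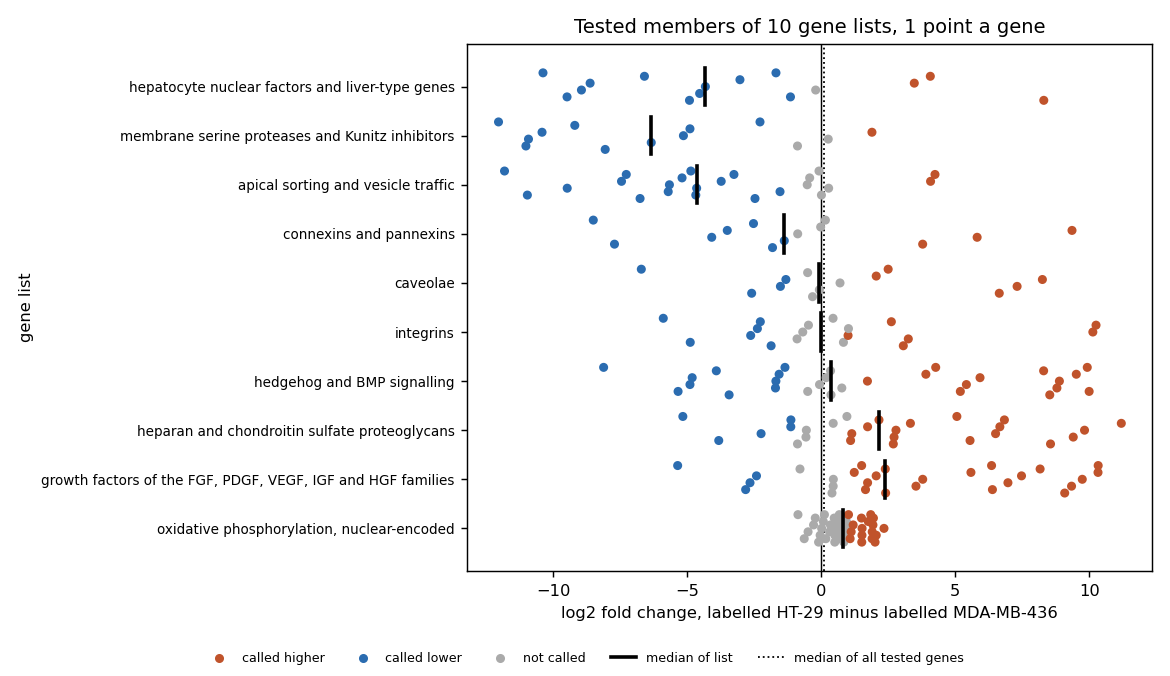
Log2 fold changes (HT-29-labelled minus MDA-MB-436-labelled) of the tested members of 10 gene lists, 1 point a gene, with the list's median as a bar and the median of all tested genes, 0.09, as a dotted line. Hepatocyte nuclear factors, proteases and apical traffic lie mostly to the left, proteoglycans and growth factors to the right, and caveolae, integrins and hedgehog genes on both sides.

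Growth factor genes were mostly higher in the HT-29-labelled pair, 20 of 28 against 4 lower (median 2.40). Of the 28, 13 passed the filter through 1 pair only, and with a filter of 10 CPM 12 were higher and 2 lower. FGF2, the basic fibroblast growth factor, stood at 3288 and 3437 in the HT-29-labelled pair and 2.06 and 1.23 in the MDA-MB-436-labelled pair (log2 fold change 10.33, SE 0.191). VEGFC, a ligand for lymphatic vessels, stood at 834 and 871 in the HT-29-labelled pair and had 0 reads in the other. FLT4, its receptor, stood at 1203 and 1162 in the HT-29-labelled pair and 0 and 1.85 in the MDA-MB-436-labelled pair. A lymphatic ligand and its receptor were thus both present in 1 pair and at or near 0 in the other. VEGFA, the main ligand of blood vessels, went the opposite way, at 3104 and 3081 in the HT-29-labelled pair and 16469 and 16482 in the MDA-MB-436-labelled pair (-2.41). IGFBP5 and IGFBP7, which bind insulin-like growth factors, were at or near 0 in the MDA-MB-436-labelled pair, with 1274 and 1287 for the first in the HT-29-labelled pair. IGFBP4 was lower there at 696 and 688 in the HT-29-labelled pair and 4797 and 4975 in the MDA-MB-436-labelled pair.

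Receptor tyrosine kinases outside the ERBB and EPH families had 14 higher and 6 lower of 28 (median 0.87). Of the 28, 11 passed the filter through 1 pair only. With a filter of 10 CPM 6 were higher, and 5 to 6 were lower over all alternatives. FGFR1, a receptor of FGF2, stood at 3077 and 2943 in the HT-29-labelled pair and 18.5 and 12.9 in the MDA-MB-436-labelled pair, and DDR2, a collagen receptor, at 2192 and 2146 in the HT-29-labelled pair and 24.7 and 26.5 in the MDA-MB-436-labelled pair. MET, the receptor of hepatocyte growth factor, stood at 5672 and 5798 in the HT-29-labelled pair and 29136 and 28534 in the MDA-MB-436-labelled pair, and its relative MST1R at 96 and 89.2 in the HT-29-labelled pair and 4478 and 4419 in the MDA-MB-436-labelled pair. Within the FGF receptors and the collagen receptors, members changed in opposite directions. FGFR3 and DDR1, the epithelial collagen receptor, fell (log2 fold changes -3.52 and -1.60). AXL, also among the mesenchymal markers, stood at 3332 and 3285 in the HT-29-labelled pair and 136 and 139.8 in the MDA-MB-436-labelled pair.

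Hedgehog ligands signal to cells that carry the transducer SMO and the GLI factors, and BMP ligands are held back by secreted antagonists. Of 29 such genes 13 were higher and 10 lower (median 0.37). SHH, the ligand, stood at 138 and 135 in the HT-29-labelled pair and 2044 and 2085 in the MDA-MB-436-labelled pair. SMO stood at 979.6 and 959.7 in the HT-29-labelled pair and had 0 reads in the other, and GLI3, a transcription factor of the pathway, at 739.5 and 721 against 0 reads. The ligand was thus higher in the pair without a detected read of SMO or GLI3. BMP4 stood at 28.5 and 21.3 in the HT-29-labelled pair and 1023 and 1051 in the MDA-MB-436-labelled pair, and ID1, a target of BMP signals, at 525 and 489.7 in the HT-29-labelled pair and 13737 and 14811 in the MDA-MB-436-labelled pair. Antagonists divided, with GREM1, which binds BMP2 and BMP4, at 1776 and 1787 in the HT-29-labelled pair and 2.06 and 0 in the MDA-MB-436-labelled pair. CHRD, which encodes chordin, stood at 21 and 30.1 in the HT-29-labelled pair and 7224 and 7269 in the MDA-MB-436-labelled pair.

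Of 25 Hippo genes 8 were higher and 8 lower (median -0.19), which at 32.0% each is near the shares over all genes. NF2, which encodes the upstream suppressor merlin, stood at 7.5 and 4.38 in the HT-29-labelled pair and 1297 and 1375 in the MDA-MB-436-labelled pair (log2 fold change -7.63, SE 0.243), beside 2354 and 2414 in MCF10A. WWTR1, the coactivator TAZ, stood at 2411 and 2482 in the HT-29-labelled pair and 4.12 and 0.616 in the MDA-MB-436-labelled pair (9.73). YAP1, its paralog, named after its values were seen, stood at 3212 and 3329.5 in the HT-29-labelled pair and 7337 and 7293 in the MDA-MB-436-labelled pair (-1.16). The paralogs thus differed in opposite directions, and NF2 was near 0 in the pair with more TAZ message. Of the TEAD factors that bind both, TEAD3 and TEAD1 were lower (-2.63 and -1.62). AMOTL1 and AMOT, which hold the coactivators at junctions, were higher, the first at 885 and 913 in the HT-29-labelled pair and 8.23 and 0 in the MDA-MB-436-labelled pair. AMOTL1 lost its call without either HT-29-labelled library (adjusted p = 0.0875 and 0.0881, with log2 fold changes of 8.23 and 8.19). Without one or the other of these libraries 5 members were called higher.

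Of 28 Notch genes 10 were higher and 10 lower (35.7% each, beside 29.9% and 23.8% over all genes, median -0.79). NOTCH2, a receptor, stood at 9219.6 and 9056 in the HT-29-labelled pair and 2073 and 2074 in the MDA-MB-436-labelled pair, and JAG1, a ligand, at 1158 and 1144 in the HT-29-labelled pair and 6934 and 6770.1 in the MDA-MB-436-labelled pair. NRARP, a target of Notch signals, stood at 113 and 87.5 in the HT-29-labelled pair and 1754 and 1741 in the MDA-MB-436-labelled pair, lower in the HT-29-labelled pair as JAG1 was. DTX3, a relative of a Notch regulator, stood at 903 and 857 in the HT-29-labelled pair and had 0 reads in the other. Of 35 guidance genes 15 were higher and 15 lower (median -0.27). SLIT2, a secreted repellent, stood at 1830.1 and 1771 in the HT-29-labelled pair and 0 and 1.23 in the MDA-MB-436-labelled pair, and its receptor ROBO1 at 1503 and 1549 in the HT-29-labelled pair and 8.23 and 2.46 in the MDA-MB-436-labelled pair. NTN1, which encodes netrin-1, stood at 2667 and 2545 in the HT-29-labelled pair and 4.12 and 7.39 in the MDA-MB-436-labelled pair, whereas its receptor UNC5B was the lower one at 701 and 652 in the HT-29-labelled pair and 7584 and 7798 in the MDA-MB-436-labelled pair. SEMA4G and NTN4 were also lower (-4.07 and -3.36).

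The ARMCX, BEX and TCEAL genes form a cluster on the long arm of the X chromosome and encode small or armadillo-repeat proteins, several of them of neurons. Of 20 tested 18 were higher in the HT-29-labelled pair and 0 lower, 16 of them at least 8-fold (median 3.82, or 3.73 with genes at 0 reads set to their bound). Of the 20, 9 passed the filter through 1 pair only, and over the alternatives 12 to 18 were higher. NGFRAP1, a BEX gene that binds the neurotrophin receptor p75, stood at 3606 and 3436 in the HT-29-labelled pair and had 0 reads in the other, with 2640.3 and 2618 in MCF10A. ARMCX1, of the mitochondrial outer membrane, stood at 2118 and 2235 against 0 reads, with 0 and 0.491 in MCF10A. BEX1 stood at 666 and 721 against 0 reads, and had 0 reads in MCF10A too. Of the TCEAL members, TCEAL2 had 0 reads in the MDA-MB-436-labelled pair and the others were above 0 in both pairs, with TCEAL3 at 603 and 630.3 in the HT-29-labelled pair and 39.1 and 38.8 in the MDA-MB-436-labelled pair. ARMCX3 stood at 5015 and 5055 in the HT-29-labelled pair and 1441 and 1517 in the MDA-MB-436-labelled pair, beside 0 and 1.96 in MCF10A. ARMCX5 and GPRASP1 were the 2 not called, at 0.12 and -0.55. NGFRAP1 was thus shared with MCF10A, while BEX1 was detected in the HT-29-labelled pair alone.

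**Figure D4:**
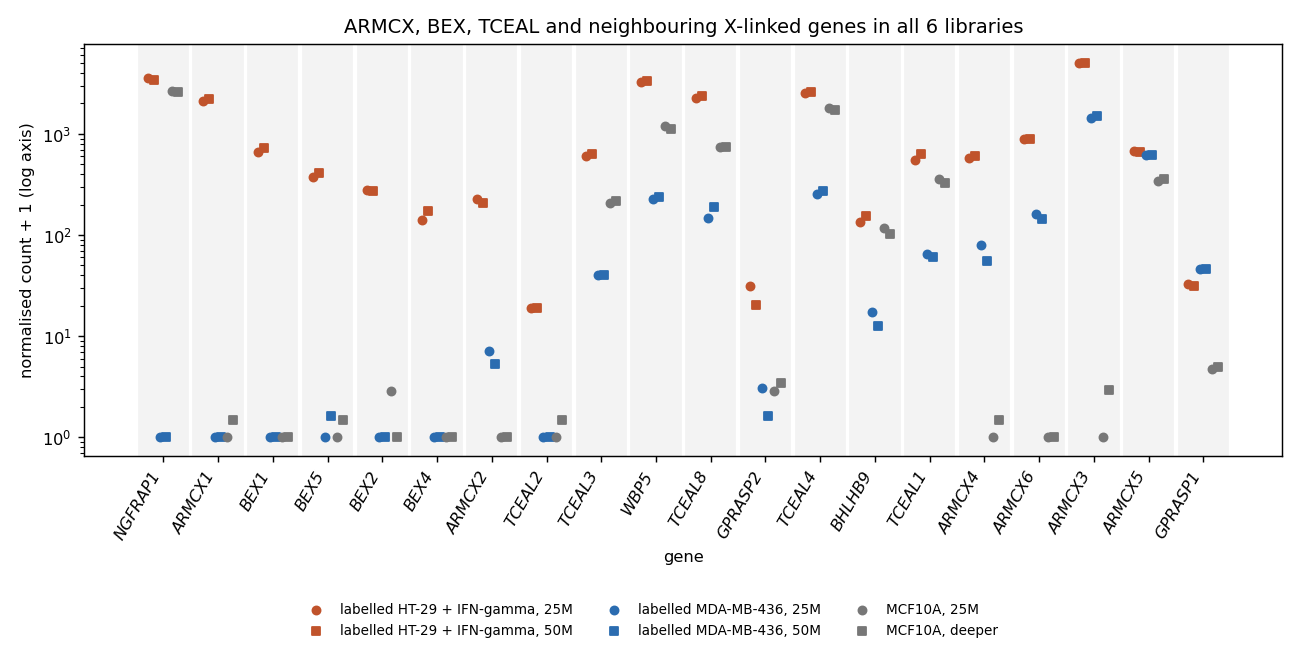
Normalised count + 1 on a log axis for the 20 tested ARMCX, BEX, TCEAL and neighbouring X-linked genes in all 6 libraries, ordered by log2 fold change. The HT-29-labelled libraries are higher by the test in 18 genes, and the MDA-MB-436-labelled ones sit at 0 for NGFRAP1, ARMCX1, BEX1, BEX2, BEX4 and TCEAL2.

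The stretches of 250 bases before the start of ARMCX1 and BEX1, at 0 reads in the MDA-MB-436-labelled pair, are shown with each CG dinucleotide in capitals, since CG is the site of DNA methylation. They are from RefSeq on GRCh38.p14, at chrX:101550297-101550546, plus strand for ARMCX1 and at chrX:103064172-103064421, minus strand for BEX1.
ARMCX1: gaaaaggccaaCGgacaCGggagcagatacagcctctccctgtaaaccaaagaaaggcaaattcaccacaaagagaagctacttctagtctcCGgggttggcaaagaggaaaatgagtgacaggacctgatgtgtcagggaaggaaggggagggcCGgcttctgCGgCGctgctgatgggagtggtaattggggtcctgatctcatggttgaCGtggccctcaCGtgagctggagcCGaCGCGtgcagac
BEX1: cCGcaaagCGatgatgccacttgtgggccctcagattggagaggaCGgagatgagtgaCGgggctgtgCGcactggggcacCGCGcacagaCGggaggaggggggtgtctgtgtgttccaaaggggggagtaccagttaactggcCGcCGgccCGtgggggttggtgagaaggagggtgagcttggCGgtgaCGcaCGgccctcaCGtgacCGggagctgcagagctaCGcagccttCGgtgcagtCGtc
ARMCX1 has 11 CG dinucleotides and BEX1 has 19, beside a median of 11 over all 35116 promoters in the table. Methylation was not measured.

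Imprinted genes are expressed from 1 parental copy. Of 20 tested 14 were higher in the HT-29-labelled pair and 5 lower (median 2.0). PEG10, a gene derived from a retrotransposon, stood at 11720.2 and 12300.3 in the HT-29-labelled pair and 12.4 and 3.7 in the MDA-MB-436-labelled pair. SGCE, its neighbour in the genome, stood at 2252 and 2170.1 against 0 reads, and TFPI2, of the same imprinted cluster, at 5442 and 5459.6 in the HT-29-labelled pair and 6.18 and 2.46 in the MDA-MB-436-labelled pair. These 3 neighbours were thus all higher in the HT-29-labelled pair. NDN, which encodes necdin, stood at 1605 and 1546 against 0 reads. MEST and PHLDA2, of other imprinted clusters, were lower, MEST at 144 and 117 in the HT-29-labelled pair and 2227 and 2139.7 in the MDA-MB-436-labelled pair and PHLDA2 at 2514 and 2387 in the HT-29-labelled pair and 10662 and 11322 in the MDA-MB-436-labelled pair.

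Among oncofetal RNA-binding and HMGA genes 10 were higher and 5 lower of 19 (median 3.78). With a filter of 10 CPM 5 were higher and the median was 0.35, and it was 1.58 with a pseudocount of 10. QKI, a splicing regulator of mesenchymal and glial cells, stood at 4034 and 4148 in the HT-29-labelled pair and 4.12 and 0.616 in the MDA-MB-436-labelled pair. RBM47, a splicing regulator of epithelia, stood at 1253 and 1248 in the HT-29-labelled pair and 10861 and 10401 in the MDA-MB-436-labelled pair, in the opposite direction. IGF2BP1 stood at 1863 and 1805 in the HT-29-labelled pair and 2.06 and 1.85 in the MDA-MB-436-labelled pair while its paralog IGF2BP2 stood at 498 and 553 in the HT-29-labelled pair and 4564 and 4639 in the MDA-MB-436-labelled pair. The paralogs differed in opposite directions. HMGA1, a chromatin protein, was lower at 10418 and 10085 in the HT-29-labelled pair and 57755 and 59879 in the MDA-MB-436-labelled pair.

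Homeobox genes outside the HOX clusters were higher in 26 and lower in 6 of 40 (median 2.94), while with a filter of 10 CPM 10 were higher and the median was 0.37. IRX3, a patterning factor, stood at 585 and 589 in the HT-29-labelled pair and had 0 reads in the other. MSX1, a factor of limb and face mesenchyme, stood at 1208 and 1319 in the HT-29-labelled pair and 4.12 and 3.08 in the MDA-MB-436-labelled pair. SATB1, a chromatin organiser, was lower at 162 and 156 in the HT-29-labelled pair and 788 and 806 in the MDA-MB-436-labelled pair, as were TGIF1 (-1.89) and PITX1 (-1.28). Calls of PITX1 and ZHX2 ended with scaling by library size alone, and that of ZHX2 (-1.05) without the 25M HT-29-labelled library (-0.99).

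Genes of the neuronal cytoskeleton and of excitable membranes were mostly higher in the HT-29-labelled pair. Of 25 tubulins and microtubule-associated proteins 14 were higher and 3 lower (median 1.23). DPYSL3, of growth cones, stood at 20857 and 20361 in the HT-29-labelled pair and 76.2 and 70.2 in the MDA-MB-436-labelled pair, and TUBB6, a tubulin, at 3237 and 3125 in the HT-29-labelled pair and 20.6 and 15.4 in the MDA-MB-436-labelled pair. MAP1B, of axonal microtubules, stood at 2628 and 2686 in the HT-29-labelled pair and 0 and 4.93 in the MDA-MB-436-labelled pair. MAP7, which stabilises microtubules in epithelia, was lower at 885 and 943 in the HT-29-labelled pair and 4893 and 4806 in the MDA-MB-436-labelled pair. Reads of near-identical tubulins can be shared, so that levels of single tubulins are uncertain. Of 44 channel genes 29 were higher and 8 lower (median 3.61, or 3.43 with genes at 0 reads set to their bound). KCNMA1, the large-conductance calcium-activated potassium channel, stood at 2028 and 1987 in the HT-29-labelled pair and 2.06 and 0 in the MDA-MB-436-labelled pair. CACNA1A, a neuronal calcium channel, stood at 884 and 804 in the HT-29-labelled pair and 20.6 and 20.9 in the MDA-MB-436-labelled pair, and KCNK6, a leak potassium channel, was lower at 10.5 and 19.7 in the HT-29-labelled pair and 782 and 705 in the MDA-MB-436-labelled pair. With a filter of 10 CPM 8 channel genes were higher and 5 lower (median 0.83). Granule genes had 9 higher and 3 lower of 15 (median 2.0). Of the 15, 9 passed the filter through 1 pair only, and with a filter of 10 CPM 4 were higher and 0 lower. PCSK1N, an inhibitor of a prohormone convertase, led the higher ones at 2225 and 1957 in the HT-29-labelled pair and 4.12 and 0.616 in the MDA-MB-436-labelled pair. VGF stood at 630.0 and 628 in the HT-29-labelled pair and 136 and 179.8 in the MDA-MB-436-labelled pair.

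CASP1 and PYCARD of the inflammasome were high in 1 pair and IL1B in the other. The list of inflammasome and gasdermin genes was split. Of 22 tested 10 were lower in the HT-29-labelled pair and 6 higher (median -0.53). These are 45.5% and 27.3%, beside 23.8% and 29.9% over all genes. IL1B, the interleukin cut by caspase-1, stood at 5199 and 5093 in the HT-29-labelled pair and 16.5 and 6.77 in the MDA-MB-436-labelled pair, and IL1A at 7002 and 7487 in the HT-29-labelled pair and 10.3 and 9.85 in the MDA-MB-436-labelled pair. CASP1 stood at 246 and 204 in the HT-29-labelled pair and 2573 and 2656 in the MDA-MB-436-labelled pair, and PYCARD, the adaptor that recruits it, at 25.5 and 27.9 in the HT-29-labelled pair and 1064 and 1119 in the MDA-MB-436-labelled pair. GSDMB, a gasdermin, stood at 34.5 and 39.4 in the HT-29-labelled pair and 2518 and 2672 in the MDA-MB-436-labelled pair, also lower in the HT-29-labelled pair. Another gasdermin, DFNA5, stood at 615 and 599 in the HT-29-labelled pair and 0 and 1.85 in the MDA-MB-436-labelled pair, in the opposite direction. Genes of prostanoid metabolism had 13 higher and 6 lower of 29 (median 0.78, and 0.08 with no filter on low values). PTGES, the synthase of prostaglandin E2, stood at 3799.7 and 3717 in the HT-29-labelled pair and 111 and 108 in the MDA-MB-436-labelled pair, and PTGER4, a receptor of that prostaglandin, at 1305 and 1329.6 in the HT-29-labelled pair and 12.4 and 8.62 in the MDA-MB-436-labelled pair. The synthase and the receptor were both higher in the HT-29-labelled pair. PLA2G16 was lower at 1034 and 1086 in the HT-29-labelled pair and 8817 and 8653 in the MDA-MB-436-labelled pair.

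Retinoid genes were lower more often than higher. Xenobiotic genes were too, but not with a filter of 10 CPM. Sulfotransferases, glutathione transferases and cytochromes had 13 lower and 9 higher of 29 (median -0.82). With the filter of 10 CPM 6 of these genes were lower, while at least 8 were higher under every alternative. CYP3A5, a drug-metabolising cytochrome of gut and liver, stood at 10.5 and 6.02 in the HT-29-labelled pair and 4986 and 4985 in the MDA-MB-436-labelled pair. CYP26B1, which degrades retinoic acid, stood at 1769 and 1793 in the HT-29-labelled pair and 10.3 and 11.7 in the MDA-MB-436-labelled pair, and GSTM3 at 1293 and 1214 in the HT-29-labelled pair and 0 and 4.93 in the MDA-MB-436-labelled pair. GSTM3 lost its call without either HT-29-labelled library (adjusted p = 0.0566 and 0.0558, with log2 fold changes of 8.96 and 9.05). Retinoid and vitamin D genes had 14 lower and 5 higher of 24 (median -1.55). RARG, a retinoic acid receptor, stood at 559.5 and 566 in the HT-29-labelled pair and 8139.9 and 8415 in the MDA-MB-436-labelled pair, and RARRES3, which retinoids induce, at 469.5 and 424 in the HT-29-labelled pair and 13019 and 13494 in the MDA-MB-436-labelled pair. RARB, another receptor, named after its values were seen, stood at 413 and 432 in the HT-29-labelled pair and 0 and 0.616 in the MDA-MB-436-labelled pair, so that the receptors changed in opposite directions. STRA6, a vitamin A uptake protein, was higher at 2244 and 2058 in the HT-29-labelled pair and 303 and 309 in the MDA-MB-436-labelled pair.

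Amino acid transporters had 14 lower and 6 higher of 27 (median -1.18). SLC1A5, the glutamine transporter ASCT2, stood at 4935 and 4725 in the HT-29-labelled pair and 61368 and 61113 in the MDA-MB-436-labelled pair, and SLC38A2, another neutral amino acid carrier, at 5178 and 5358 in the HT-29-labelled pair and 37253 and 36608 in the MDA-MB-436-labelled pair. SLC1A3, a glutamate transporter of glia, stood at 1289 and 1333 in the HT-29-labelled pair and 0 and 0.616 in the MDA-MB-436-labelled pair, in the opposite direction to its family member SLC1A5. Of 36 fatty acid genes 12 were higher and 12 lower (median 0.21), again near the shares over all genes. ACSL5, the acyl-CoA synthetase of enterocytes, stood at 55.5 and 46.5 in the HT-29-labelled pair and 16018 and 15828 in the MDA-MB-436-labelled pair, and its relative ACSL1 went the other way at 2489 and 2380.2 in the HT-29-labelled pair and 839.9 and 862 in the MDA-MB-436-labelled pair. PLIN2, which coats lipid droplets, stood at 3917 and 3714 in the HT-29-labelled pair and 504 and 541 in the MDA-MB-436-labelled pair, and ACADM, which oxidises medium-chain fatty acids, at 5389.8 and 5399 in the HT-29-labelled pair and 896 and 955 in the MDA-MB-436-labelled pair, both higher in the HT-29-labelled pair.

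Of 44 nuclear-encoded subunits of oxidative phosphorylation 17 were higher in the HT-29-labelled pair (38.6%, beside 29.9% over all genes), 0 were lower and 27 were not called. The median was 0.81 beside 0.09 over all genes, the lowest log2 fold change was -0.87, and none reached 8-fold. ATP5J, a subunit of ATP synthase, stood at 5325 and 5447 in the HT-29-labelled pair and 1035 and 1088 in the MDA-MB-436-labelled pair (log2 fold change 2.34, SE 0.0386). NDUFA4, a cytochrome oxidase subunit, stood at 8993 and 9162 in the HT-29-labelled pair and 2153 and 2221 in the MDA-MB-436-labelled pair (2.05). ATP5G3 and ATP5O, of ATP synthase, had log2 fold changes of 2.01 and 1.95. With scaling by library size alone 26 members were higher, while the list's median relative to that of all genes stayed between 0.58 and 0.76 over all alternatives but the filter of 10 CPM.

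A grouping of all tested genes by symbol stem, over 190 stems with at least 10 tested genes, gave families of which some members of CHST, ADAMTS and CACNA are also in the lists above. CHST, the carbohydrate sulfotransferases, had 11 of 12 members higher in the HT-29-labelled pair. ADAMTS proteases had 15 of 17 higher, COL collagen chains 25 of 31, CACNA calcium channel subunits 9 of 12 and SYT synaptotagmins 8 of 11. The share higher over all tested genes was 29.9%. In the opposite direction 2 COL, 3 CACNA and 3 SYT members were lower, and 0 of CHST and ADAMTS. By this share sulfation and matrix families ranked at the top, beside vesicle and channel families. The stems with the highest share lower were HOXA with 9 of 11, MUC mucins with 9 of 11, CLDN claudins with 8 of 11, IRF interferon regulatory factors with 8 of 11 and ATF with 7 of 10. The share lower over all tested genes was 23.8%, and 3 CLDN members and 1 ATF member were higher. Members that passed the filter through 1 pair only were not counted by stem. Members of a stem can share reads and neighbourhood, and the 10 stems were picked for these shares.

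RB1, the retinoblastoma tumour suppressor, stood at 224 and 235 in the HT-29-labelled pair and 4930.5 and 4863 in the MDA-MB-436-labelled pair (log2 fold change -4.41, SE 0.0454, adjusted p = 1.66e-07), beside 4754 and 4891 in MCF10A. Its neighbours on chromosome 13 were listed, 10 on each side in the order of the RefSeq gene table. LPAR6, a receptor of lysophosphatidic acid whose gene lies inside RB1, stood at 3 and 1.09 in the HT-29-labelled pair and 148 and 133 in the MDA-MB-436-labelled pair (-5.61). Reads of LPAR6 and RB1 cannot be told apart where the genes overlap, as the strand setting is not given in the sources used here. ITM2B, the next gene on the other side, stood at 4365 and 4185 in the HT-29-labelled pair and 10164 and 10324 in the MDA-MB-436-labelled pair (-1.26). RCBTB2, beyond LPAR6, stood at 131 and 115 in the HT-29-labelled pair and 101 and 92.4 in the MDA-MB-436-labelled pair and was not called. The low values beside RB1 thus ended with LPAR6 on 1 side and were less than 3-fold at ITM2B on the other. Of the remaining neighbours LRCH1 was lower (-2.21), LCP1 was higher (3.91) and 10 were not called. CPB2, KIAA0226L, HTR2A, CYSLTR2 and MLNR were below the filter.

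**Figure D5:**
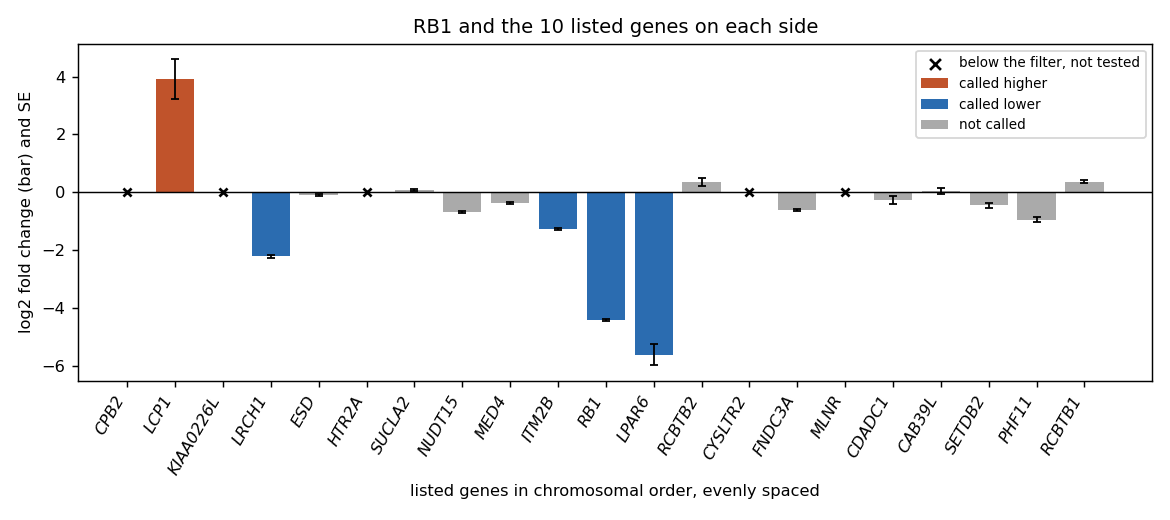
Log2 fold change with SE for RB1 and the 10 listed genes on each side, in chromosomal order and evenly spaced, with crosses for genes below the filter. RB1 at -4.41 and LPAR6 at -5.61 are the lowest bars, ITM2B is at -1.26, and most other tested neighbours lie near 0.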

How the data were processed

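RNA from the 6 libraries was sequenced as 50-base pairs, per the labels' protocols. The submitters' processing notes name FastQC, STAR 2.2.0, HTSeq and hg19. Annotation, strand setting and method of normalisation: not given in the sources used here. The deposited normalised counts are a signal with 1 scale factor per library: whole reads were recovered from 100% of values within a tolerance of 0.001. Deposited RPKM was not used, since its rows are displaced. Of 23368 rows, 28 read as dates and 4 repeated a name, which left 23340.

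The pairs to compare and the gene lists were chosen with earlier results of these data known. limma 3.58.1 (R 4.3.3), with a trended and robust prior, was fitted to log2(normalised count + 1) of the 4 libraries, for genes at 10 or more in at least 2. Adjusted p-values are Benjamini-Hochberg over 15360 genes, and calls need 0.05 and 2-fold. Fold changes on this scale understate those of low genes. Folds in words are ratios of pooled reads. A pair at 0 reads was set to 3 reads over the pair, which covers counting error only. Tested on simulated counts for this comparison over 15360 genes, the fit called 67 of 67 genes changed 3-fold and 66 of 66 changed 8-fold, with 0 false calls. Of 67 genes changed 1.5-fold, under the 2-fold threshold, 0 were called. Few genes were changed there, none of low level, with 1 spread setting for all genes. In the data 53.7% of genes were called, so that the 0 false calls do not carry over. The median chi-square between the libraries of a pair was 0.730 (labelled HT-29) and 0.686 (labelled MDA-MB-436), where sampling gives 0.455. Neither pair was counted as 1 library. This excess cannot tell separate libraries from 1 library sequenced in 2 runs, since runs can differ too.

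Genes named are a panel of 8, the 12 largest changes each way among called genes that reach 20 CPM (of normalised counts) in both libraries of the higher pair without overlap, and up to 4 list members per direction by the same rule. A few genes chosen this way were left out of the text. The 32 lists hold 927 entries, of which 926 were found and 817 tested. Alternatives were edgeR 4.0.16, DESeq2 1.42.0 and limma-voom on the recovered reads, other scalings, pseudocounts and filters, all 6 libraries in 1 fit, thinned reads and each library left out. RefSeq promoters matched 75.9% of tested genes, under the 80% needed, so motif shares over gene sets are not given. Promoter windows are the 250 bases before the start.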

Additional observations from a re-analysis of the deposited data

How the results depend on the processing

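Counts of calls stayed within 1.5 times the 4598 higher and 3656 lower genes under every alternative but 1: a filter of 10 CPM left 10787 genes, with 2540 higher and 2577 lower, since genes of low level were no longer tested. Leaving out 1 library at a time gave 3943 to 4612 higher and 3497 to 3623 lower. No gene called in the limma fit was called in the opposite direction under any alternative run. Of the named genes, no more than 4 lost their call under any 1 setting, and each is given beside its values except VAMP2 (log2 fold change 1.04), which, like ZHX2 and ITGAV, did not pass when tested against a fold of 2. Of the 64 list counts, 26 moved by more than 1.5 times with the filter of 10 CPM, 3 with scaling by library size alone, and no more than 2 under any other setting. List medians near 0 changed sign with scaling by library size alone: integrins to 0.96, caveolae to 0.26, Hippo genes to 0.14 and guidance genes to 0.05. Medians of lists with many low genes also moved with the filter of 10 CPM: receptor tyrosine kinases to 0.25, glycosyltransferases to -0.89, connexins to -2.66, imprinted genes to 3.83 and xenobiotic genes to -0.32. With no filter connexins moved to -0.78, granule genes to 1.04, tetraspanins to -0.55 and xenobiotic genes to -0.36. The labels carry no replicate numbers, so nothing pairs the libraries but their labelled depth. With that depth as a block 4611 genes were higher and 3666 lower, and deviations of the same-depth libraries correlated at 0.02 over genes. Depth limits genes at or near 0 in 1 pair. Their folds are bounds where the pair had 0 reads, and otherwise ratios that rest on few reads.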
